A study of Mus musculus with 14 samples.

Results

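Sorted skeletal muscle precursor cells of mice aged 12 months were compared with those of mice aged 2 months across all genes, a step that runs from the end of growth to maturity. The comparison was chosen by the age labels and used the 4 arrays labelled 12 months and the 5 labelled 2 months, 9 of the 14 arrays of the series. All mice were of the C57BL/6 background and no array carried a treatment or genotype label. Cells associated with myofibres were released from muscle by enzymes and mechanical force and sorted with the gate CD45-Ter119-Sca-1-CD29+Cxcr4+, which leaves out blood cells and most endothelial and fibroblast-like cells. RNA from the sorted cells was hybridized to Affymetrix mouse arrays, which report 1 intensity per probe set. The 5 remaining arrays, of 24 months, entered the choice of the probe sets tested, the estimate of the spread and most alternative settings. They also entered the axis within the ages described below and a comparison of the earlier with the later step. The labels do not say that each array came from a separate animal or that animals were pooled, so the p-values measure only the spread between these samples, which may in part be technical.

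The gate enriches satellite cells, the stem cells that lie between a myofibre and its basement membrane. In growing muscle satellite cells divide and add nuclei to fibres. In mature muscle most are quiescent, and on injury they divide, express Myod1 and then Myog, and fuse. Their surroundings hold collagens, laminins and proteoglycans made largely by fibroblasts, and at the fibre ends by tendon cells (tenocytes).

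The genes behind the gate were checked first. Pax7, whose protein is the classical satellite cell marker, had a group mean of 9.52 ± 0.45 (log2 intensity, SD, n = 5) at 2 months and 9.34 ± 0.38 (n = 4) at 12 months. Itgb1, which encodes CD29, stood at 8.24 ± 0.70 and 8.39 ± 0.38 (change 0.15, or -0.52 with probe sets of unique sequence only, neither called), and Cxcr4 at 8.60 ± 0.15 and 8.09 ± 0.38. Both probe sets of Ptprc, which encodes CD45, lay below the 40th percentile of every array, and Ly6a, which encodes Sca-1, had no probe set of its own. Array medians ran from 19.6 to 21.2 in linear intensity. RNA quality was judged from Gapdh and Actb, whose control probe sets lie at the 3' and the 5' end of the transcript. The mean gap between those ends was 4.30 ± 0.54 (log2, n = 5) at 2 months and 3.85 ± 0.25 (n = 4) at 12 months (exact two-sided permutation p = 0.190; the smallest that 126 arrangements allow is 0.00794). Within the ages the arrays also differed along 1 axis that held 31.5% of the variance left after age. Young arrays 2 and 5 and middle-aged array 1 lay on the other side of it from the remaining 6, and they had, among other genes, the highest Myf5 values of their ages. That axis was drawn from the expression values themselves, so it is not a technical batch known from the labels. Of the 9 arrays, the larger array set named below holds the remaining 6, so results within it are no independent check.

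Of 13579 genes tested, 403 differed between the ages (adjusted p under 0.05 in limma, 2.97%), of which 237 were higher at 12 months (1.75%) and 166 lower (1.22%). The rises were larger than the falls. At least 2-fold changes were called for 172 higher (1.27%) and 52 lower genes (0.383%). At least 4-fold changes were called for 67 higher (0.493%) and 2 lower genes (0.0147%), Cdca8 and Chrna1. The groups did not overlap for 371 of the 403 genes called, while they did not overlap for 1181 of all genes (8.70%). The median log2 change of all genes was -0.04, and the 5th and 95th percentiles were -0.65 and 0.59. Of all genes, 56.6% had a change below 0 and 2217 (16.3%) an unadjusted p under 0.05. Leaving out single arrays changed the counts: without middle-aged array 3 there were 123 higher and 32 lower genes, without middle-aged array 4 there were 137 and 50, without young array 1 there were 150 and 59, and without young array 3 there were 149 and 59. The lower count was also 74, 99 and 84 without young array 4, young array 5 and middle-aged array 2.

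**Figure D1:**
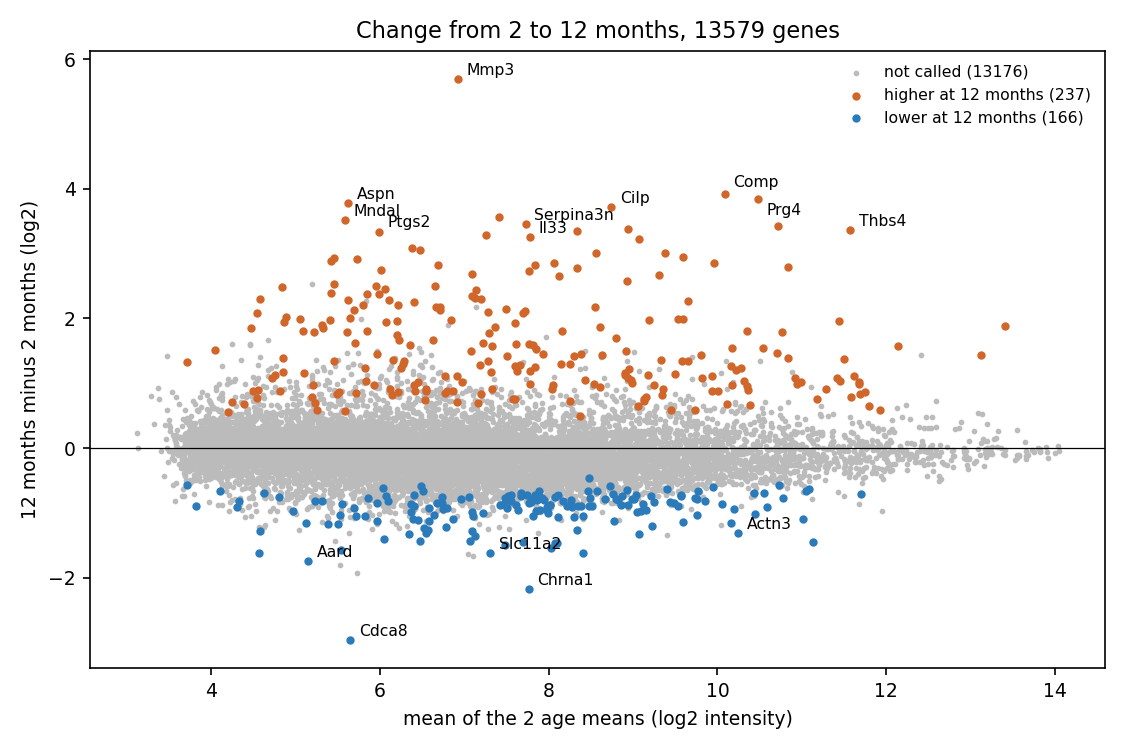
Each point is 1 of 13579 genes, with the mean of the 2 age means (log2 intensity) on the x axis and the log2 change from 2 to 12 months on the y axis; orange marks the 237 genes called higher and blue the 166 called lower. The rises reach 5.69 (Mmp3), while the falls end at -2.96 (Cdca8).

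Tenocyte markers held the highest median of the gene lists examined. The members of the lists were chosen with earlier results of these data known, so this rank is no independent support. Of 17 measured members, 12 were higher at 12 months, 0 lower and 5 were not called, with a median log2 change of 2.39 against -0.04 over all genes. Comp (Entrez 12845), a pentameric matrix protein that binds collagen in tendon and cartilage, read 8.39, 8.02, 7.02, 8.77 and 8.41 on the 2-month arrays 1 to 5 and 11.40, 11.30, 13.27 and 12.22 on the 12-month arrays 1 to 4. Every 12-month array lay above every 2-month array, and the change was 3.92 ± 0.50 (SE) or 15.2-fold (adjusted p = 0.000812). Thbs4, a thrombospondin of tendon and of the muscle-tendon junction, went from 9.89 ± 0.90 to 13.26 ± 0.51, which is 10.3-fold, and Chad, the matrix protein chondroadherin, rose 10.8-fold from 9.01 ± 0.85 to 12.44 ± 0.78. Neither group overlapped the other for Thbs4 or Chad.

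Other tenocyte markers rose as well. Angptl7, a secreted glycoprotein, rose 11.9-fold (3.57 ± 0.53) and Cpxm2, a carboxypeptidase-like secreted protein, 10.2-fold (3.35 ± 0.50). Tnmd, the tendon membrane protein tenomodulin, rose 7.69-fold, from values between 7.20 and 8.68 to values between 10.10 and 12.13. Kera, the proteoglycan keratocan, rose 6.39-fold, Ptgis, the prostacyclin synthase, 6.32-fold, and Col11a1, a minor fibrillar collagen, 5.24-fold. Fmod, the collagen-binding proteoglycan fibromodulin, was among the brightest genes of the arrays at both ages. It rose 3.67-fold, from 12.46 ± 0.60 to 14.34 ± 0.12, a change of 1.88 that was 3.30 with probe sets of unique sequence only. Mkx, a homeobox factor of tendon, rose 3.61-fold (1.85 ± 0.41, adjusted p = 0.0232), although middle-aged array 2 at 4.97 lay below young arrays 2 and 5, and the call ended without young array 1, 3 or 4 or middle-aged array 1, 3 or 4 (adjusted p = 0.0571 to 0.0933). Tnc, the matrix protein tenascin C, rose 4.37-fold, a call that ended without middle-aged array 3 (adjusted p = 0.0502) and within the larger array set (adjusted p = 0.0530).

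The defining factor of the tendon lineage, Scx, was not called (0.63 ± 0.31, adjusted p = 0.345). It lay below the 40th percentile on all 5 arrays of 2 months and on 2 of the 4 of 12 months. Its 12-month values were 3.69, 3.74, 5.40 and 3.94, so the one that stood out was that of array 3. The mean level over the 17 tenocyte markers was 7.01 to 8.13 on the 2-month arrays and 9.22 to 10.64 on the 12-month arrays, highest on middle-aged array 3. In sorted bulk samples a change in the number of cells of a type and a change in RNA per cell cannot be told apart. The part of tenocytes in the other matrix genes described here was not tested.

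**Figure D2:**
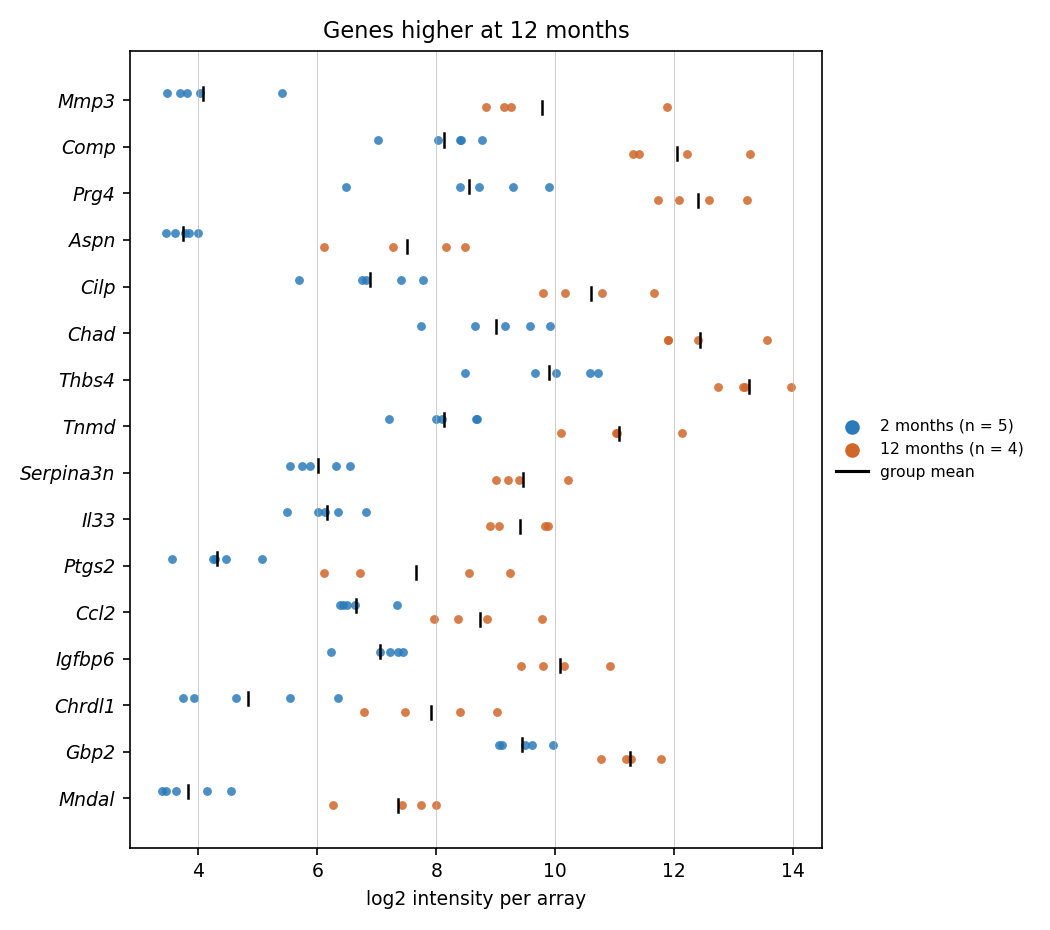
Log2 intensity of 16 genes called higher at 12 months, with 1 point per array (blue, 2 months, n = 5; orange, 12 months, n = 4) and a bar at each group mean. The groups do not overlap for any gene shown, and the gap is widest for Mmp3.

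Of 17 measured genes of cartilage and of the joint lining, 7 were higher, 0 lower and 10 not called, with a median of 0.62. Prg4, which encodes the joint lubricant lubricin, rose 14.4-fold (3.85 ± 0.55), from values between 6.48 and 9.90 to values between 11.73 and 13.23. Cilp, the cartilage intermediate layer protein, rose 13.1-fold (3.72 ± 0.44) from 6.89 ± 0.79. Aspn, the small proteoglycan asporin, read 3.46, 3.78, 3.61, 3.84 and 3.99 at 2 months, 4 of them dimmer than the 40th percentile of their array, and 8.16, 6.12, 8.49 and 7.27 at 12 months. Aspn passed the dim filter only through older arrays, so no fold is given. The other members called were Chad, Ogn, a proteoglycan also named osteoglycin (1.46), Chst11, a chondroitin sulphotransferase (1.41), and Sox6, a chondrocyte transcription factor (0.82). Sox9, the master regulator of chondrocytes, had a change of -0.37 and Acan, which encodes aggrecan, -0.18, and neither was called.

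Of 26 measured genes of the fibrillar collagens and their processing, 6 were higher, 0 lower and 20 not called, with a median of 0.10. The 6 were Col11a1, the lysyl oxidases Lox (4.82-fold), Loxl4 (5.62-fold) and Loxl3 (2.74-fold, adjusted p = 0.0464), which cross-link collagen, Pcolce (3.47-fold), an enhancer of procollagen cleavage, and P3h2, a prolyl hydroxylase (1.25). Lox read 8.27, 9.18, 7.98, 8.31 and 8.85 at 2 months and 11.11, 10.12, 11.31 and 10.61 at 12 months, with no overlap. The change of Loxl4 was 2.49, or 1.42 with the mean of its probe sets. The genes of collagens I and III were not called in the main fit. Col1a1 stood at 9.57 ± 0.64 and 9.66 ± 0.91 (change 0.09 ± 0.52, adjusted p = 0.961). Col1a2 had 1.43 ± 0.37 (adjusted p = 0.0520) with no overlap between the groups. Among other settings, it was called higher with array weights (adjusted p = 0.0160) or the 3' to 5' covariate (adjusted p = 0.0126). With the mean of its probe sets Col1a2 had 0.71 (adjusted p = 0.423), and with probe sets of unique sequence only -0.0176 (adjusted p = 0.993). Col3a1 had -0.98 ± 0.30 (adjusted p = 0.0956). It was called lower with the mean of its probe sets (-1.22, adjusted p = 0.0473), array weights (adjusted p = 0.0179) or the 9 arrays alone (adjusted p = 0.0350). The count was 3 without young array 3 or middle-aged array 3, and the call of Loxl3 ended without any single array except middle-aged array 2 (adjusted p = 0.0642 to 0.167). In the same limma fit 0 of 24 basement membrane genes were called, with a median of 0.08. At an unadjusted p under 0.05 there were 4, against 16.3% of all genes. The nearest to a call was Lamc1, a laminin chain, at -0.89 (adjusted p = 0.0565). With array weights, median centring or a term for the array set 2 of these genes were lower.

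The largest change of all genes was that of Mmp3 (Entrez 17392), which encodes stromelysin, a secreted protease that cuts proteoglycans and activates other proteases. Mmp3 read 4.03, 3.81, 3.47, 3.69 and 5.41 on the 2-month arrays and 9.14, 9.26, 11.87 and 8.83 on the 12-month arrays. Even the brightest 2-month array lay below every 12-month array, and the change was 5.69 ± 0.62 or 51.8-fold (adjusted p = 0.000407). At 2 months 3 of the 5 values lay below the 40th percentile. Mmp3 passed the dim filter only through older arrays, so its fold is imprecise. Of 23 measured matrix proteases and inhibitors, 6 were higher and 1 lower, with a median of 0.30. The higher ones included the inhibitors Timp1 (3.92-fold), Timp3 (2.52-fold) and Timp2 (1.98-fold), the collagen-degrading cathepsin Ctsk (4.40-fold) and the proteoglycan-cutting Adamts4 (2.12-fold). Timp1 was evenly spread, from 8.01 to 8.43 at 2 months and from 9.73 to 10.58 at 12 months. The call of Timp2 ended without any single array except middle-aged array 2 (adjusted p = 0.0550 to 0.115), with the mean of its probe sets (adjusted p = 0.0798) and within the larger array set (adjusted p = 0.0716). Adamts20, a secreted protease of the same family as Adamts4, was the member that fell, from 8.83 ± 0.58 to 7.36 ± 0.39, and its call ended without middle-aged array 2, 3 or 4 (adjusted p = 0.0502 to 0.0689).

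The promoter of Mmp3 is shown because its gene moved most and because the AP-1 site near its start is a textbook element of stromelysin genes. The 110 bases before the transcription start (RefSeq, GRCm38.p6, chr9:7445712-7445821, plus strand) hold 1 match to the AP-1 motif TGANTCA, in capitals, at bases 46 to 40 before the start.
Mmp3: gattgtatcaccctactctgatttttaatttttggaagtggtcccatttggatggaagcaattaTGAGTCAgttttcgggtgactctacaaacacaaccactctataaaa
On either strand this motif occurred in 3.08% of 32851 promoter windows of the same length, and a match is a description of the sequence only. Genes of AP-1 itself were among the immediate early response genes, of which 1 of 28 measured was called, with a median of 0.08. Over all genes 2.97% were called. The member called was Klf2, a zinc finger factor (1.28 ± 0.22, 2.43-fold), while Fos had 0.02, Jun -0.09, Atf3 0.08 and Fosl1 0.14, none called.

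Of 28 measured secreted inflammatory factors, 9 were higher, 0 lower and 19 not called, with a median of 0.77. Besides Mmp3 the largest rises were those of Serpina3n, an acute-phase protease inhibitor (10.9-fold, 3.45 ± 0.38), Ptgs2, the inducible prostaglandin synthase (10.1-fold, 3.34 ± 0.55), and Il33, a cytokine released from damaged cells (9.53-fold, 3.25 ± 0.34). Il33 read 6.13, 6.82, 5.50, 6.00 and 6.34 at 2 months and 9.82, 8.90, 9.87 and 9.05 at 12 months. The Ptgs2 values at 12 months were spread more widely, at 8.55, 6.12, 9.24 and 6.72, yet all lay above the highest 2-month value of 5.07, and with the mean of its probe sets the change was 2.47.

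Chemokines and cytokines of the same list were split. Ccl2, which attracts monocytes, rose 4.23-fold, from 6.66 ± 0.40 to 8.74 ± 0.79. Ccl11, which attracts eosinophils, rose 4.87-fold, a call that ended without young array 1, 3 or 4 or middle-aged array 1, 3 or 4 (adjusted p = 0.0513 to 0.0628). Il6 read 5.90, 8.67, 5.42, 5.63 and 7.58 at 2 months and 10.01, 8.64, 10.25 and 9.10 at 12 months, so young array 2 overlapped the 12-month group. The mean change was 2.86 ± 0.56 (7.26-fold, adjusted p = 0.0123), and the call ended without middle-aged array 3 (adjusted p = 0.0577). Tac1, the precursor of the neuropeptide substance P, rose 6.45-fold, with middle-aged array 2 at 6.54 against 8.83 to 9.34 on the other 12-month arrays. Lcn2, an iron-binding acute-phase protein, rose 5.68-fold, a call that ended without young array 1, 2 or 5 or middle-aged array 1, 2 or 3 (adjusted p = 0.0508 to 0.124) and within the larger array set (1.71, adjusted p = 0.0550). By contrast Tnf had -0.03, Il1b 0.04, Cxcl10 -0.23, Ccl20 -0.03 and Csf2 0.04, and none of these was called. Of the receptors for Il6-type cytokines and their feedback, singled out after their values were seen, Osmr rose 2.16-fold (11.06 ± 0.38 to 12.17 ± 0.11) and Socs3, which limits cytokine signalling, 2.12-fold. The call of Socs3 ended without middle-aged array 3 or 4 (adjusted p = 0.0521 to 0.0655), and that of Osmr where the mean of its probe sets stood for the gene (0.49, adjusted p = 0.144).

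NF-kappaB is a transcription factor family that inflammatory signals release into the nucleus, and several of its targets feed back on it. Of 20 measured genes of that list, 5 were higher, 0 lower and 15 not called, with a median of 0.39. A change above 0 was seen in 19 of the 20, while 56.6% of all genes had a change below 0. Nfkbie, an inhibitor of NF-kappaB, rose 2.55-fold (8.90 ± 0.34 to 10.25 ± 0.26), Icam1, an adhesion protein, 2.11-fold, Birc3, an inhibitor of cell death, 1.84-fold, and Cebpd, a transcription factor of the acute-phase response, 1.57-fold. The fifth was Zc3h12a, an RNase that degrades cytokine transcripts (0.91). The subunit genes themselves moved less and were not called, with Rela at 0.21, Relb at 0.43, Nfkb2 at 0.19 and Rel at -0.32. The count was 2 without middle-aged array 3 and 3 without young array 1 or 3 or middle-aged array 1 or 4. It was also 2 without probe sets of shared sequence, where Birc3 had 0.54 (adjusted p = 0.0954), and 3 with the mean of probe sets, where Cebpd had 0.39 (adjusted p = 0.315).

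Of 33 measured interferon response genes, 3 were higher, 0 lower and 30 not called, with a median of 0.44. A change above 0 was seen in 28 of them, while 56.6% of all genes had a change below 0. The 3 were Mndal, a member of the interferon-inducible Ifi200 family, Gbp2, a guanylate-binding protein that acts against pathogens inside cells, and Ifitm3, an antiviral membrane protein. Gbp2 read 9.11, 9.96, 9.49, 9.06 and 9.60 at 2 months and 11.77, 11.19, 10.78 and 11.27 at 12 months, a change of 1.81 ± 0.30 or 3.49-fold (adjusted p = 0.00390). Mndal rose 11.5-fold (3.52 ± 0.57), with 3 of 5 values at 2 months below the 40th percentile. Mndal passed the dim filter only through older arrays, so its fold is imprecise. Its probe set may cross-hybridize within the Ifi200 family, and with probe sets of unique sequence only it had 2.30 (adjusted p = 0.0738). Ifitm3 rose 1.72-fold, a call that ended without young array 1, 3 or 4 or middle-aged array 3 or 4 (adjusted p = 0.0534 to 0.0935). Genes that respond to type I interferon in most cells, such as Ifit1 (0.31), Ifit3 (0.43), Oas2 (-0.03), Irf7 (0.39) and Stat2 (0.32), were not called. The list count was 7 with array weights, within the larger array set or in a fit of the 9 arrays alone, 6 with the 3' to 5' gap as a covariate and 5 with a term for the array set.

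The promoter of Gbp2 is shown because, of these 3 calls, it was the one that did not end without any single array or with probe sets of unique sequence only. The 110 bases before its start (RefSeq, GRCm38.p6, chr3:142620553-142620662, plus strand) hold 1 match to the core of the interferon-stimulated response element (TTTC, any 2 bases, TTTC), in capitals, at bases 59 to 50 before the start.
Gbp2: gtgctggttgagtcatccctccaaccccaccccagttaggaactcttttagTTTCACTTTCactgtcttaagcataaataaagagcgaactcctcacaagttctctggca
This motif occurred on either strand in 1.11% of the windows searched. The Gbp2 window also holds TGAGTCA, a match to the AP-1 motif, left in lower case. In each promoter shown, only the motifs named with it were marked.

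Genes of antigen presentation on MHC class I and of the immunoproteasome gave 3 higher and 0 lower of 15 measured, with a median of 0.29. The heavy chain genes H2-K1 (1.69-fold) and H2-D1 (1.87-fold), which are nearly alike in sequence, and Tapbp, a chaperone of peptide loading (1.72-fold), were the members called. Each of these calls rested on single arrays, and H2-D1 had 0.45 (adjusted p = 0.281) with probe sets of unique sequence only, a setting that gives no value for H2-K1. The count was 0 without young array 2 or 5 or middle-aged array 2, 3 or 4 and 1 without young array 1 or 4. Of 16 genes of the complement list, 2 were higher and 1 lower, with a median of 0.22. C1ra (3.06-fold) and C1s1 (3.82-fold), the proteases that start the classical pathway, rose, and C1qtnf3, a secreted relative of C1q and TNF that is not itself a complement component, fell 3.07-fold. The call of C1s1 ended without young array 1 or 3 or middle-aged array 3 or 4 (adjusted p = 0.0642 to 0.0966). That of C1qtnf3 ended without any single array except middle-aged array 2 (adjusted p = 0.0551 to 0.119).

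Signalling pathways were described list by list. Of 24 measured BMP and Id genes, 2 were higher and 0 lower, with a median of 0.18. Chrdl1, a secreted BMP antagonist, rose 8.46-fold, from 3.93, 5.54, 3.74, 4.64 and 6.34 to 8.39, 6.78, 9.02 and 7.48, and Bmp5, a BMP ligand, rose 3.88-fold with an overlap between the groups. The call of Bmp5 ended without young array 1, 3 or 4 or middle-aged array 1, 3 or 4 (adjusted p = 0.0651 to 0.122) and with the 3' to 5' covariate (1.82, adjusted p = 0.0541). Averaged over their probe sets, Bmp5 had 0.95 and Chrdl1 2.31. Of 35 Wnt pathway genes, 3 were higher and 0 lower, with a median of 0.06, and all 3 are secreted: Wif1 (8.28-fold), which binds Wnt proteins, Sfrp4 (2.89-fold), a frizzled-related antagonist, and Dkk3 (3.17-fold), of the dickkopf family. The Wnt count was 1 without young array 1 or 3 and 0 without middle-aged array 3, and Sfrp4 was also lost with the 3' to 5' covariate (1.22, adjusted p = 0.0566). Axin2, a target gene of the pathway, had 0.07 and was not called.

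Of 25 measured genes of the IGF axis, 3 were higher and 0 lower, with a median of 0.14. All 3 encode binding proteins that hold or present IGF. Igfbp6 read 7.06, 7.23, 6.23, 7.35 and 7.44 at 2 months and 10.14, 9.42, 10.92 and 9.80 at 12 months, a change of 3.01 ± 0.35 or 8.06-fold (adjusted p = 0.000504). Igfbp7 rose 2.92-fold and Igfbp5 1.97-fold. The call of Igfbp7 ended where the mean of its probe sets stood for the gene (0.56, adjusted p = 0.161), and that of Igfbp5 without young array 1, 2 or 3 or middle-aged array 3 or 4 (adjusted p = 0.0532 to 0.0973). The ligands were not called, with Igf1 at -0.33 and Igf2, a foetal growth factor, at 0.69 ± 0.24 (adjusted p = 0.158).

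The other signalling lists held few calls, where 2.97% of all genes were called. Fgf9, a fibroblast growth factor, rose 3.47-fold and was the only call among 25 genes of FGF signalling and its feedback (median -0.02). Averaged over its probe sets, Fgf9 had 0.90. Rbpj, the DNA-binding effector of Notch, rose 1.60-fold and was the only call of 23 Notch genes (median -0.15). Its groups overlapped and the call ended without young array 1, 3, 4 or 5 or middle-aged array 1, 3 or 4 (adjusted p = 0.0712 to 0.129), and it had 0.42 (adjusted p = 0.145) with the mean of its probe sets. Hey1, a Notch target of quiescent satellite cells, narrowly missed the threshold at -0.93 ± 0.24 (adjusted p = 0.0508), with 9.05 to 9.56 at 2 months and 7.81 to 8.98 at 12 months, and it passed under 6 of the other processing settings, among them array weights (-0.96, adjusted p = 0.00954). Of 29 genes of the TGF-beta, activin and GDF axis, 0 were called in limma (median 0.08). An unadjusted p under 0.05 was reached by 3 of them and by 16.3% of all genes. With array weights 1 was higher and within the larger array set 2. The lowest adjusted p in that list was 0.186, for the co-receptor gene Tgfbr3. Gdf11, the ligand in the title of the series, stood at 4.78 ± 0.16 and 4.85 ± 0.25 (adjusted p = 0.881). Among 31 axon guidance genes Sema3c, a secreted semaphorin, rose 3.93-fold and Vldlr, a reelin receptor, fell 1.79-fold (median 0.05). Both calls ended without single arrays, Sema3c without any of 7 (adjusted p = 0.0558 to 0.124) and Vldlr without any of 4 (adjusted p = 0.0575 to 0.0837). Sema3c was also lost with the mean of its probe sets (1.19, adjusted p = 0.0962) and Vldlr with probe sets of unique sequence only (-0.64, adjusted p = 0.0656).

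Genes of satellite cell identity were mostly lower in sign and none passed the test in limma. Of 30 measured, 0 were called (7 at an unadjusted p under 0.05) and 22 had a change below 0, with a median of -0.22. Over all genes 16.3% had an unadjusted p under 0.05 and 56.6% a change below 0. Pax7 read 9.85, 8.91, 9.15, 9.90 and 9.76 at 2 months and 9.68, 8.90, 9.14 and 9.64 at 12 months, so the groups covered nearly the same range (-0.18 ± 0.27, adjusted p = 0.822). Myf5, an early myogenic factor, had -0.53 ± 0.44 (adjusted p = 0.626), with its highest values on young arrays 2 and 5 and middle-aged array 1. Calcr, the calcitonin receptor of quiescent satellite cells, had -0.92 (adjusted p = 0.195), and the growth factor receptors Met and Fgfr4 had -0.62 and -0.75. The count of lower genes was 6 within the larger array set and 4 with a term for the array set, both drawn from these expression values. It was also 4 with array weights, 3 with the 3' to 5' covariate and 2 in a fit of the 9 arrays alone. With a term for the array set or with array weights 1 gene was higher.

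Myogenic commitment showed 1 fall and otherwise no call. Of 30 measured genes of commitment and fusion, 1 was lower and 0 higher, with a median of -0.19. Chrna1 (Entrez 11435), the alpha subunit of the acetylcholine receptor of muscle, read 9.18, 7.91, 9.45, 9.16 and 8.58 at 2 months and 6.23, 7.05, 7.01 and 6.40 at 12 months. The groups did not overlap and the change was -2.18 ± 0.33, a 4.53-fold fall (adjusted p = 0.00236). The other receptor subunits moved less, with Chrnb1 at -0.38, Chrng at -0.32 and Chrnd at 0.03. Myod1, the commitment factor, had -0.37 ± 0.17 (adjusted p = 0.301). Myog, which drives differentiation, read 8.66, 5.45, 9.82, 9.14 and 6.64 at 2 months and 5.91, 5.98, 6.80 and 6.42 at 12 months. The high values lay on young arrays 1, 3 and 4, whereas young arrays 2 and 5 lay within or near the 12-month range, and Myog was not called (-1.66 ± 0.75, adjusted p = 0.278). Within the larger array set it passed (-2.81, adjusted p = 0.00219). That set leaves out young arrays 2 and 5 and was drawn from these values, so the pass is no independent support. Msc, a transcription factor that represses myogenic factors, singled out after its values were seen, fell 2.15-fold, from 11.57 ± 0.44 to 10.47 ± 0.16.

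The promoter of Chrna1 is shown because this gene was the only call of its list and because E-boxes bind Myod1 and Myog. The 110 bases before its start (RefSeq, GRCm38.p6, chr2:73580339-73580448, minus strand) hold 2 matches to the E-box CAGCTG, in capitals, at bases 92 to 87 and 44 to 39 before the start.
Chrna1: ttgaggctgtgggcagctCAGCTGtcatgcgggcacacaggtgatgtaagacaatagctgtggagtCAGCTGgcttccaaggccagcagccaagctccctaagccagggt
At least 1 match to this motif occurred in 6.33% of the windows searched, and the motif reads the same on both strands.

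Transcripts of the mature myofibre can come from fibre fragments in a digest. Of 28 measured transcripts, 0 were called higher and 1 lower, with a median of 0.38. A change above 0 was seen in 20 and below 0 in 8. The member called was Actn3, the alpha-actinin of fast fibres, which fell 2.49-fold, from 10.29 to 11.40 at 2 months to 9.21 to 10.05 at 12 months. Among the others Myl1, a fast myosin light chain, had 1.34 and Tnnt3, fast troponin T, 1.07, neither called.

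**Figure D3:**
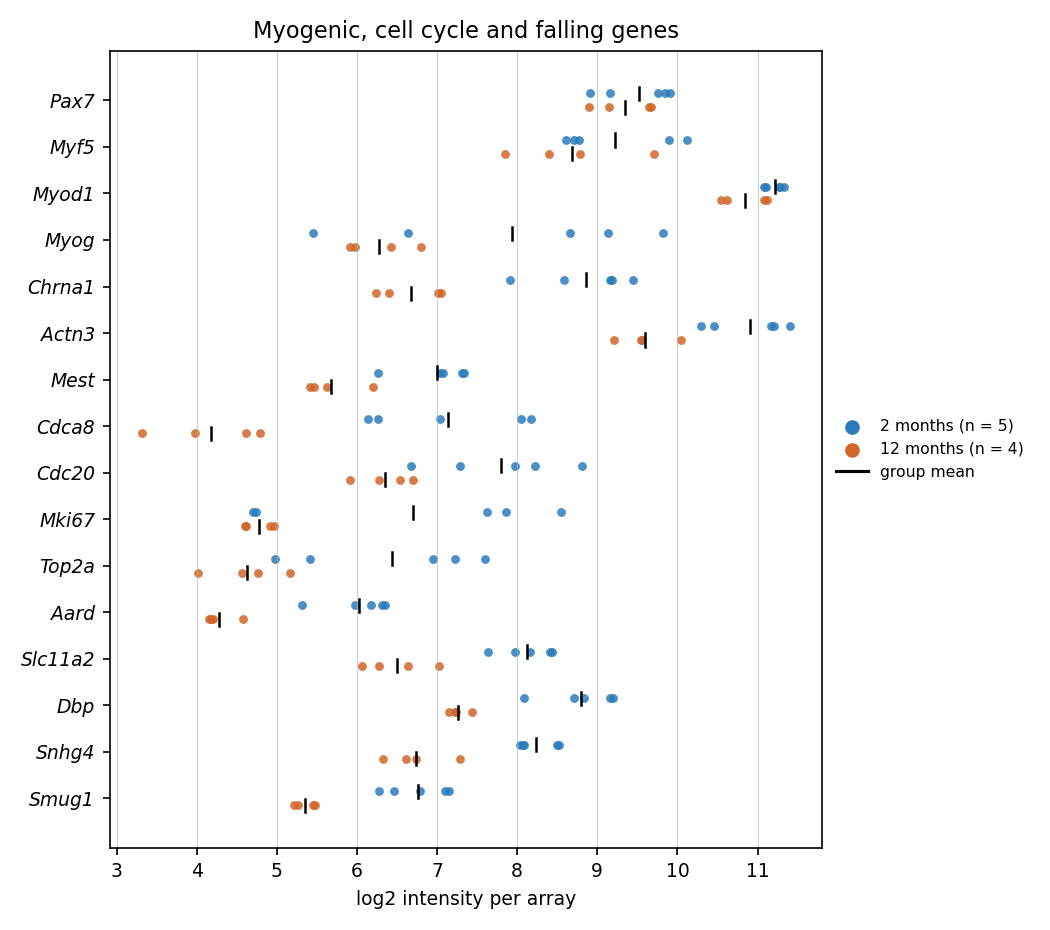
Log2 intensity of 16 myogenic, cell cycle and falling genes, with 1 point per array (blue, 2 months, n = 5; orange, 12 months, n = 4) and a bar at each group mean. Pax7 overlaps between the ages, Chrna1 and Cdca8 do not, and Mki67 and Myog are split among the 2-month arrays.

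Cell division genes were lower in sign at 12 months, with a wide spread at 2 months. Of 19 measured mitosis genes, 1 was called lower and 18 had a change below 0 (56.6% of all genes did), with a median of -0.97. Mki67, a marker of dividing cells, read 7.86, 4.74, 7.63, 8.55 and 4.70 at 2 months and 4.96, 4.61, 4.92 and 4.60 at 12 months. Young arrays 1, 3 and 4 therefore lay far above all others, while young arrays 2 and 5 matched the 12-month level, and the gene was not called (-1.92 ± 0.79, adjusted p = 0.230). Top2a, which untangles DNA in mitosis, had the same split (-1.80 ± 0.63, adjusted p = 0.156), with young arrays 2 and 5 at 4.98 and 5.42 and the others between 6.95 and 7.60. With the mean of its probe sets Top2a had -0.87, and with probe sets of unique sequence only 0.0726 (adjusted p = 0.890). Cdc20, which switches on the ubiquitin ligase of anaphase, fell 2.71-fold, but its groups overlapped and the call ended without young array 1, 3 or 4 or any single 12-month array (adjusted p = 0.0735 to 0.0952), and with the 3' to 5' covariate (-1.23, adjusted p = 0.0671). It had -0.90 (adjusted p = 0.0905) with the mean of its probe sets and -0.92 (adjusted p = 0.160) with probe sets of unique sequence only. The mitosis count was 2 without young array 2 or 5, 12 with array weights and 13 within the larger array set, which holds young arrays 1, 3 and 4 and so was drawn along these same genes.

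Outside that list, Cdca8 (Entrez 52276), which encodes borealin of the chromosomal passenger complex, was the largest fall of all genes called. It read 8.18, 6.14, 7.03, 8.05 and 6.26 at 2 months and 4.79, 4.62, 3.97 and 3.32 at 12 months. No array of 12 months reached the lowest of 2 months, and the change was -2.96 ± 0.56, a 7.77-fold fall (adjusted p = 0.00982). The setting with probe sets of unique sequence only gives no value for Cdca8. With the replicate number as a block its call ended (-2.93, adjusted p = 0.0534). Singled out after their values were seen, the kinetochore gene Zwint fell 2.22-fold, from 10.16 ± 0.14 to 9.01 ± 0.38, Cenpp, of the centromere, 2.42-fold and Smc4, a condensin subunit, 2.40-fold. The fall of Zwint was -0.26 (adjusted p = 0.546) with probe sets of unique sequence only, and the call of Smc4 ended without middle-aged array 3 or 4 (adjusted p = 0.0517 to 0.0762) and with the mean of its probe sets (-0.78, adjusted p = 0.0796). Ccnd1, the cyclin that moves cells from rest into the cycle, fell 2.75-fold with an overlap between the groups, a call that ended without young array 1, 3 or 4 or any single 12-month array (adjusted p = 0.0647 to 0.0960) and with the 3' to 5' covariate (-1.10, adjusted p = 0.0559).

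Of 27 measured S phase genes, 0 were called in limma, and the median was -0.14. At an unadjusted p under 0.05 there were 4, a level that 16.3% of all genes reached. With array weights 2 of them were lower, and within the larger array set 3 were lower and 1 higher. Among 23 CDK inhibitors, Rb family genes and p53 targets, 1 was higher (Gadd45g, 1.95-fold) and 1 lower (Sesn1, 1.99-fold), with a median of -0.14. Both of these calls ended without any of 7 single arrays (adjusted p = 0.0501 to 0.101 for Gadd45g and 0.0598 to 0.148 for Sesn1), and Sesn1 had -0.44 (adjusted p = 0.655) with probe sets of unique sequence only. Cdkn1a, a CDK inhibitor of quiescent and stressed cells, stood at 12.16 ± 0.41 and 12.14 ± 0.25 (adjusted p = 0.973).

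The promoters of Cdca8 and Cdc20 are shown together as those of the largest fall and of the one gene called in the mitosis list, since promoters of such genes often carry CCAAT boxes. In the 110 bases before its start (RefSeq, GRCm38.p6, chr4:124936918-124937027, minus strand), Cdca8 has 3 CCAAT boxes on the opposite strand, in capitals as ATTGG, at bases 85 to 81, 51 to 47 and 11 to 7. Cdc20 (chr4:118437344-118437453, minus strand) has 2 CCAAT boxes at bases 53 to 49 and 8 to 4 and a match to TTTGAA, the core of the cell cycle homology region, at bases 18 to 13.
Cdca8: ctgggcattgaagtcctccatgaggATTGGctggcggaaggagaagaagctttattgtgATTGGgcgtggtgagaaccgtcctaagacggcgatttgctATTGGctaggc
Cdc20: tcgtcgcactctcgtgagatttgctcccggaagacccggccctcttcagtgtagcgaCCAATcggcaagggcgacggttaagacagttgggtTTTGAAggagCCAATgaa
A CCAAT box occurred on either strand in 20.2% of the windows searched and TTTGAA in 6.40%.

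The other large falls came from genes of varied function. Aard, a gene named for its alanine and arginine rich domain, read 6.31, 6.18, 5.31, 5.97 and 6.36 at 2 months and 4.58, 4.17, 4.21 and 4.15 at 12 months, a 3.36-fold fall (-1.75 ± 0.21, adjusted p = 0.000504). Slc11a2, the iron transporter DMT1, fell 3.08-fold, from 8.12 ± 0.33 to 6.50 ± 0.42. With the mean of its probe sets it had -0.71 (adjusted p = 0.0534). Smug1, a DNA glycosylase that removes uracil, fell 2.65-fold, from 6.28 to 7.15 at 2 months to 5.21 to 5.47 at 12 months. Lrrn1, a membrane protein with leucine-rich repeats, fell 3.08-fold and Snhg4, a host gene of small nucleolar RNA, 2.84-fold.

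Several of the largest falls rested on single arrays. The calls of Itm2a, a membrane protein of myogenic cells (2.73-fold), Pde1c, a phosphodiesterase (2.72-fold), Crot, a carnitine acyltransferase of peroxisomes (2.99-fold), Popdc2, a membrane protein that binds cyclic AMP (2.70-fold), and Brd7, a bromodomain protein (2.56-fold), each ended without at least 2 of the 9 arrays in turn. Their highest adjusted p was 0.0837, 0.105, 0.105, 0.0815 and 0.0635. Averaged over their probe sets, Pde1c had -0.50 (adjusted p = 0.193) and Crot -0.76. Cd24a, a surface glycoprotein singled out after its values were seen, fell 2.52-fold, a call that ended without young array 3 or middle-aged array 3 (adjusted p = 0.0592 to 0.0811).

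Genes linked to growth before maturity were examined as lists. Of 20 measured imprinted growth genes, 1 was higher and 2 lower, with a median of -0.05. Mest, an imprinted gene of growing tissues, fell 2.51-fold, from values between 6.26 and 7.34 to values between 5.41 and 6.21. Its call ended without middle-aged array 3 or 4 (adjusted p = 0.0554 to 0.0581). Plagl1, a zinc finger factor of the same network, fell 1.64-fold (-0.72 ± 0.14), but had -0.17 (adjusted p = 0.861) with probe sets of unique sequence only. The higher one was Dcn, the abundant proteoglycan decorin. Peg3 stood at 11.85 ± 0.10 and 11.83 ± 0.08, and Dlk1 lay near the floor at both ages. Of 15 foetal and growth-phase regulators 0 were called in limma (2 at an unadjusted p under 0.05, against 16.3% of all genes), with a median of 0.07. Sox11, a factor of progenitor cells, had -0.76 (adjusted p = 0.0964). In that list 1 gene was lower with array weights or in a fit of the 9 arrays alone.

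Metabolic and housekeeping lists held few calls, where 2.97% of all genes were called. Of 40 oxidative phosphorylation genes 0 were called in limma (11 at an unadjusted p under 0.05, against 16.3% of all genes). A change below 0 was seen in 35 of them, against 56.6% of all genes, and the median was -0.29. With array weights 4 of them were lower and within the larger array set 3. Of 29 genes of ribosome biogenesis and translation, 25 had a change below 0 and 1 was called, Wdr12, a ribosome assembly factor (2.35-fold lower, median of the list -0.27). Its call ended without any single array except young array 5 (adjusted p = 0.0550 to 0.0865) and with the mean of its probe sets (-0.79, adjusted p = 0.158). Of 29 genes of cholesterol and fatty acid synthesis, 24 had a change below 0 and 2 were lower, Fdft1 (1.85-fold) and Nsdhl (1.72-fold), and 1 higher, Fads1 (2.02-fold), all of them lost without any of at least 7 single arrays (highest adjusted p = 0.145, 0.130 and 0.144). In limma 0 genes were called of 24 of glycolysis and glycogen (median 0.11), 23 of lipid uptake and oxidation (-0.13), 28 of autophagy and lysosome (0.10) and 27 of histones and chromatin assembly (-0.14), where 1, 3, 6 and 2 had an unadjusted p under 0.05. With array weights 0, 2, 5 and 1 of them were called.

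The counts of the remaining lists stand beside 2.97% called over all genes. Among these lists, Dbp, a transcription factor at the output of the circadian clock, was the only call of 20 clock genes. It read 9.16, 8.08, 9.20, 8.84 and 8.71 at 2 months and 7.15, 7.44, 7.23 and 7.22 at 12 months, a 2.90-fold fall (-1.54 ± 0.26). With probe sets of unique sequence only it had -1.01 (adjusted p = 0.104), and the labels give no time of day for the collection. Core clock genes were not called, with Arntl at -0.09, Per2 at 0.14 and Nr1d1 at -0.67. Sod2, a superoxide dismutase of mitochondria, was the only call of 33 antioxidant and metallothionein genes (1.77-fold higher, list median 0.08). With probe sets of unique sequence only it had 0.90 (adjusted p = 0.0709). Of 20 iron handling genes, Steap4, an iron reductase (2.34-fold), and Lcn2 were higher and Slc11a2 was lower. The call of Steap4 ended within the larger array set (0.76, adjusted p = 0.0700). Hspb8, a small heat shock protein (1.93-fold), was the only call of 29 genes of the unfolded protein and heat shock response (median -0.07). Among 31 Hox and positional genes Meox1 was higher (1.97-fold) and Eya1, a transcription cofactor of muscle development, lower (1.82-fold). The calls of Hspb8, Meox1 and Eya1 ended without any of at least 6 single arrays (highest adjusted p = 0.0744, 0.164 and 0.0773). Of 8 measured serpins 2 were higher, Serpina3n and Serpinf1, the pigment epithelium-derived factor (6.93-fold, 9.44 ± 0.36 to 12.23 ± 0.71).

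**Figure D4:**
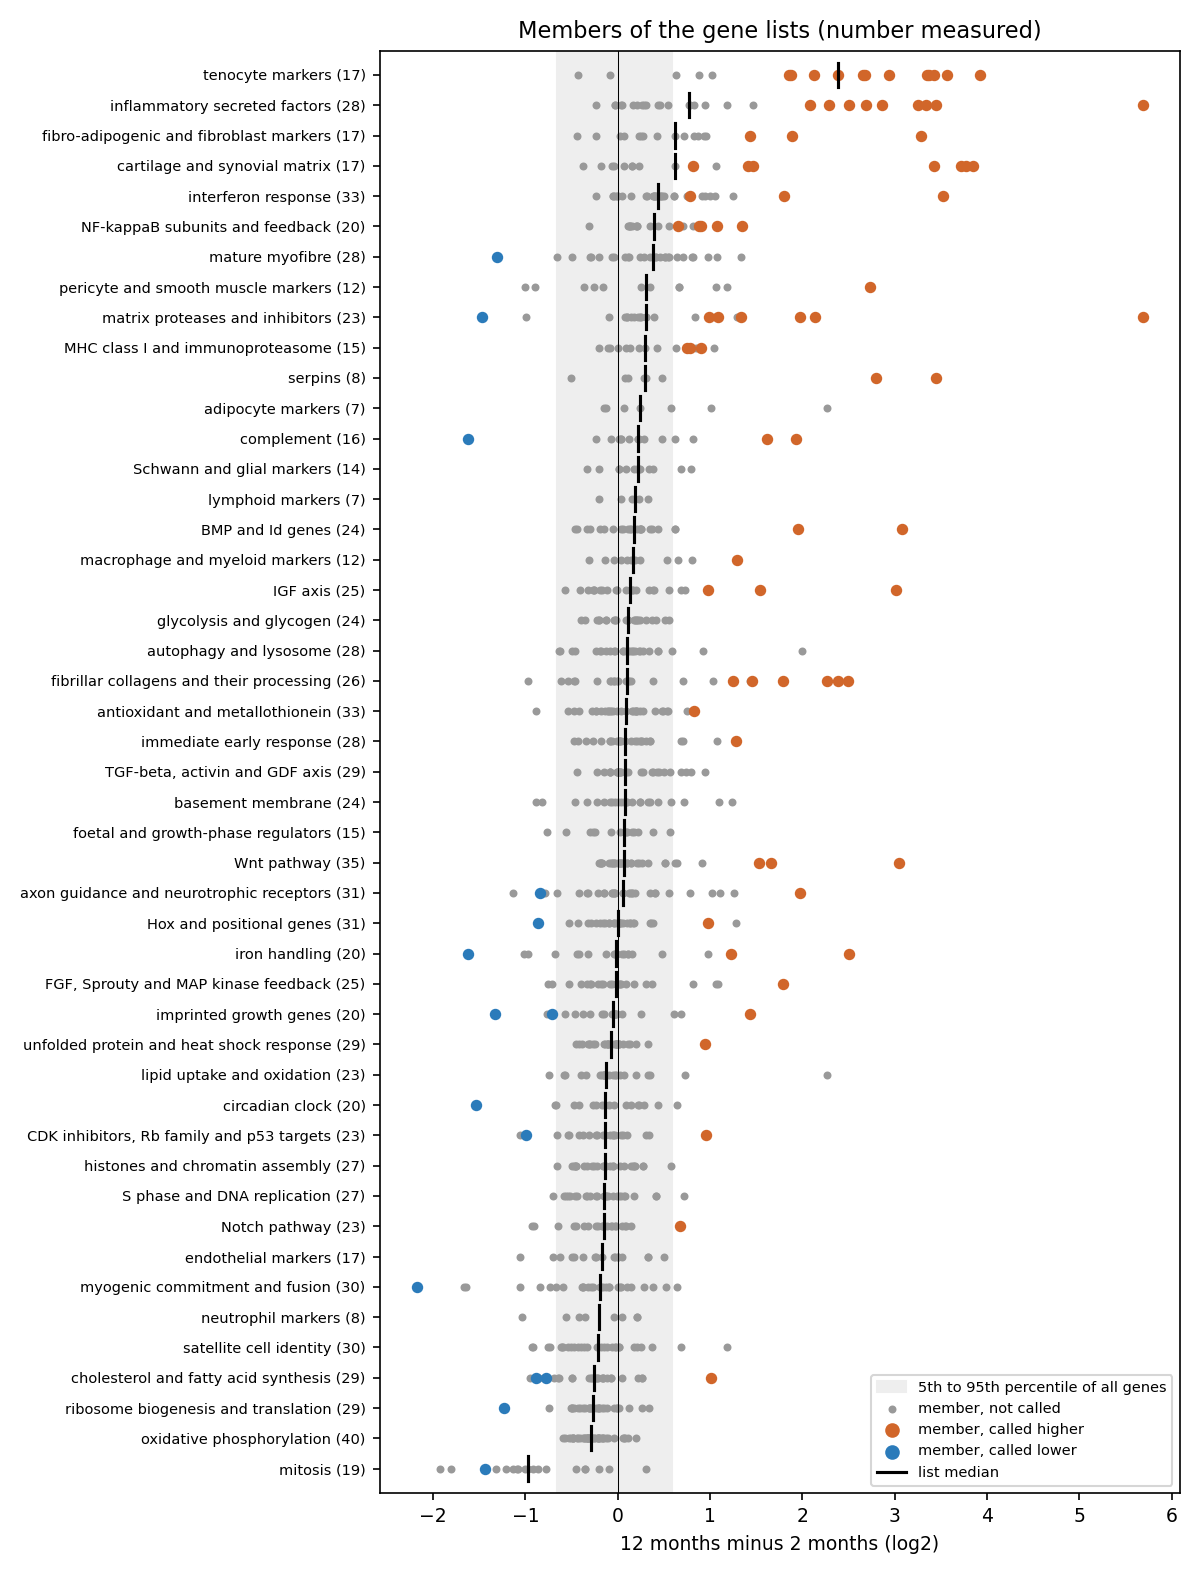
Log2 change from 2 to 12 months of every measured member of the lists with at least 5 measured genes; orange and blue points are members called higher or lower, black bars are list medians and the grey band spans the 5th to 95th percentile of all genes. Tenocyte markers lie farthest to the right (median 2.39) and mitosis genes farthest to the left (median -0.97). The list members were chosen with earlier results of these data known.

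Markers of other cell types that a digest of muscle holds were examined for the same arrays. Fibro-adipogenic and fibroblast markers had 3 of 17 higher, 0 lower and a median of 0.62. The 3 were Fbln1, a matrix protein of the fibulin family (9.73-fold), Dpp4, a surface peptidase (3.71-fold), and Dcn (2.70-fold, 12.40 ± 0.28 to 13.83 ± 0.18), while Pdgfra, the receptor that defines these cells, had 0.94 and Pi16 0.03, neither called. With the mean of its probe sets Dpp4 had 1.26 (adjusted p = 0.0693), and with probe sets of unique sequence only the change of Fbln1 was 1.79 against 3.28. The mean level of the list was 7.75 to 7.89 at 2 months and 8.19 to 8.85 at 12 months, with no overlap. Of 12 pericyte and smooth muscle markers, Pdgfrb, a growth factor receptor, rose 6.66-fold, from values between 5.68 and 7.03 to values between 8.59 and 9.84. Its change of 2.74 was 1.16 with probe sets of unique sequence only (adjusted p = 0.00730). Acta2, the actin of smooth muscle, had -0.89 and was not called, and the list median was 0.30. Of 12 macrophage and myeloid markers Cd14 rose 2.46-fold, a call that ended without middle-aged array 3 or 4 (adjusted p = 0.0651 to 0.0655), and the mean level went from 5.15 to 5.27 at 2 months to 5.33 to 5.69 at 12 months.

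In limma 0 markers were called of 17 endothelial (median -0.17), 7 lymphoid (0.18), 8 neutrophil (-0.20), 14 Schwann and glial (0.21), 7 adipocyte (0.24) and 4 erythroid genes (0.06) and of 4 sex-linked genes (-0.20). At an unadjusted p under 0.05 there were 1 endothelial, 2 Schwann and glial and 3 adipocyte genes, and 0 in the other 4 lists. Over all genes 16.3% reached that level. Of these lists 1 adipocyte gene was called within the larger array set and 1 Schwann and glial gene without middle-aged array 2, both higher. Adipocyte markers had a mean level of 5.23 to 5.61 at 2 months and 5.69 to 6.27 at 12 months, so these groups did not overlap either, and Fabp4, a lipid carrier, had 2.26 (adjusted p = 0.186). Xist stood at 5.18 ± 0.10 and 5.29 ± 0.30 and the Y-linked gene Eif2s3y at 8.32 ± 0.57 and 7.82 ± 0.69. The levels of the fibroblast, adipocyte, myeloid and tenocyte lists were thus higher on the same arrays as the matrix and inflammatory genes called. The tenocyte list itself holds many of those genes, such as Comp, Thbs4 and Chad, and the fibroblast list holds Dcn and Fbln1. For these lists the shared rise was therefore in part fixed in advance. The part of these cell types in those results was not tested.

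**Figure D5:**
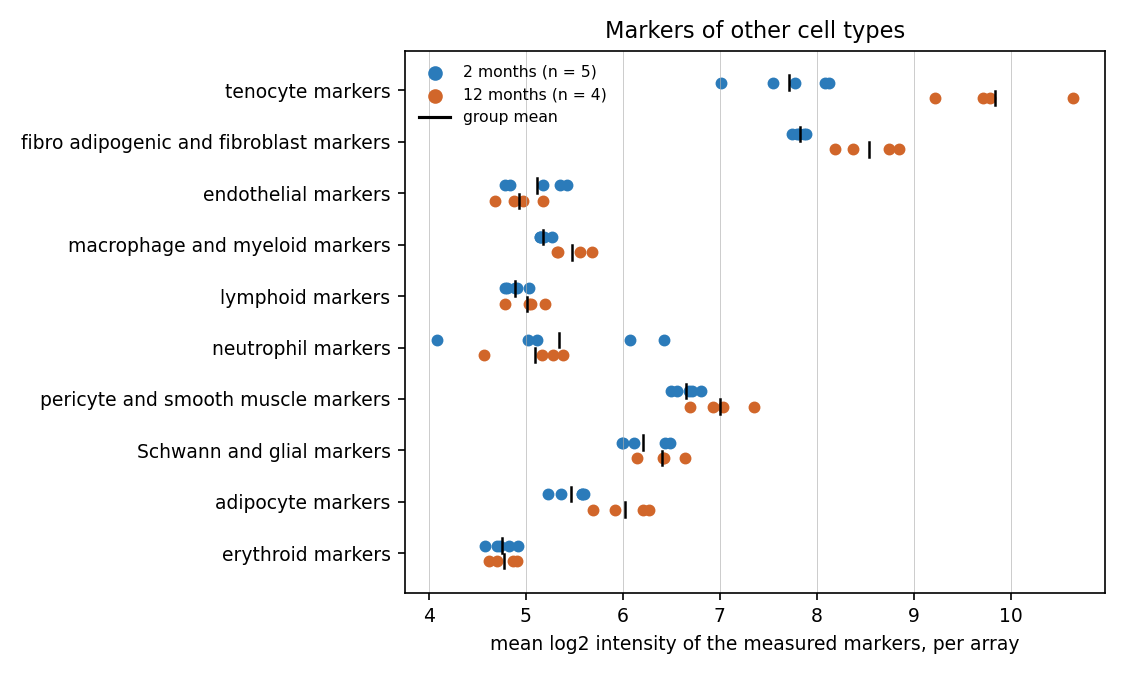
Mean log2 intensity over the measured markers of 10 cell types other than satellite cells, with 1 point per array (blue, 2 months, n = 5; orange, 12 months, n = 4) and a bar at each group mean. The ages do not overlap for tenocyte, fibro-adipogenic, macrophage and adipocyte markers and overlap for the other 6 lists.

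The change after 12 months was set beside the early step. The steps share the 12-month arrays, so their values are not independent. In limma 0 of 13579 genes were called between 24 and 12 months, where 1306 (9.62%) had an unadjusted p under 0.05, and 0 genes differed between the later and the earlier step, where 1614 (11.9%) had an unadjusted p under 0.05. That second count was 7 with a term for the array set and 179 with array weights, and 0 with trend and robust fitting, the 3' to 5' covariate or the larger array set alone. Tenocyte markers had a median of 2.39 in the early and -0.05 in the later step, and cartilage and synovial genes 0.62 and -0.13. Comp stood at 12.05 at 12 months and 12.00 at 24 months, and Fmod at 14.34 and 14.32. Inflammatory factors had 0.77 and 0.30, mitosis genes -0.97 and 0.18, and mature myofibre transcripts 0.38 and 1.14. Chrna1 went from 6.68 at 12 months to 7.47 at 24 months and Cdca8 from 4.17 to 5.63. The difference between the steps had an adjusted p of 0.0967 for Comp, Chrna1 and Cdca8, so it was not called for any of these genes.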

How the data were processed

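Sorted muscle precursor cells were measured on 14 arrays (2 months, 5; 12 months, 4; 24 months, 5). RNA was labelled with a 3'IVT kit, per the labels' protocols. RMA was the authors' summary method, per the submitters' processing notes, in a version not given in the sources used here. Linear intensities per probe set were deposited, and log2 was taken here without further normalization. This method equalizes the distributions of arrays, so a change shared by most genes would not be seen.

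Of 45101 probe sets, 34945 had 1 gene symbol in the platform annotation, 932 had several, 9160 none and 64 were controls. Probe sets above the 40th percentile of their array (log2 3.85 to 3.96 on the 9 arrays compared) on at least 4 of 14 arrays were kept (23887), and the one with the highest mean stood for its gene (13579 genes, 5993 with several). All arrays entered 1 limma fit (3.58.1, R 4.3.3) with a mean per age. Tests were two-sided, adjusted by Benjamini-Hochberg over all genes and called at an adjusted p under 0.05. The fit was tested on simulated data. Errors of changes are moderated standard errors and errors of means are SD. The number of arrays limits the precision.

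The comparison, the 49 gene lists (1234 symbols, 1136 on the array) and the tests were chosen with earlier results of these data known. Genes were selected by a rule: the 15 largest rises and falls among called genes whose groups do not overlap, up to 4 called members per list and a fixed set. Not all genes examined are described here. Among those left out are Ccdc3, Cdkn1c and Myh3. Ccdc3 was called higher in the main fit and kept its call with each array left out in turn. It also kept the call under every other setting, among them trend and robust fitting (3.37, adjusted p = 0.000232). Genes outside the rule, including uncalled list members, were singled out after their values were seen. Of the genes called, 313 of 403 had an entry in the RefSeq promoter table.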

Additional observations from a re-analysis of the deposited data

Results flagged for a closer look

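Single arrays lay far from the others of their age for 18 of 342 groups of values examined, and chance alone gives such a gap in about 1 of 20 groups. At 2 months, Mmp3 read 5.41 on array 5 against 3.47 to 4.03 on the others, and Nat10, an RNA acetyltransferase, 6.89 on array 5 against 7.25 to 7.38. On young array 2, Ccl2 read 7.34 against 6.38 to 6.64, Sod2 11.50 against 11.18 to 11.26 and Mest 6.26 against 7.03 to 7.34. Cebpd read 11.20 on young array 4 against 11.51 to 11.57, and Cpxm2 5.77 on young array 3 against 6.72 to 7.09.

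At 12 months, middle-aged array 3 was the highest for Mmp3 (11.87 against 8.83 to 9.26), Fmod (14.53 against 14.27 to 14.28), Col1a2 (13.86 against 12.80 to 12.94) and Scx (5.40 against 3.69 to 3.94). Middle-aged array 1 was the highest for Anxa3 (9.70 against 8.22 to 8.46), Aard (4.58 against 4.15 to 4.21), Itm2a (10.93 against 10.17 to 10.29) and Lsm6 (8.63 against 7.79 to 7.87). On middle-aged array 2, C1ra read 7.43 against 8.15 to 8.27, Stat6 5.64 against 6.52 to 6.64 and Itgb1 8.95 against 8.17 to 8.24.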

How the results depend on the processing

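The numbers of genes higher and lower at 12 months (237 and 166) stayed within 1.5 times under no dim filter, the 60th percentile filter, the mean of probe sets, every probe set tested, quantile normalization, median centring, trend and robust fitting and a 1.5-fold minimum. They were 496 and 657 with array weights, 361 and 380 with a term for the array set, 301 and 416 with the 3' to 5' covariate, 334 and 630 within the larger array set, 326 and 273 in a fit of the 9 arrays alone and 172 and 105 without probe sets of shared sequence. With each array left out in turn they ranged from 123 to 247 and from 32 to 221. The cause of these moves was not tested. Similar counts did not hold all the same genes. With the mean of probe sets, 200 of the 237 higher and 95 of the 166 lower calls were kept. With every probe set tested, 199 and 116 were kept. Of 136 named genes called, 67 kept their call under each array left out and 51 under every alternative. Same-numbered arrays of the ages did not all vary together (r = -0.34, -0.18, 0.14 and 0.10), so the numbers are not taken to pair them, and with the replicate number as a block the counts were 130 and 64. The count of genes that differed between the steps was 7 with a term for the array set and 179 with array weights. Of the named genes called, Lsm6 turned its direction, to 0.0207 without probe sets of shared sequence. Of those not called, Top2a, Col1a2 and Itgb1 also turned there (0.0726, -0.0176 and -0.52), and others with a change near 0 turned under further settings. Dim signals at the 40th percentile limit the folds of Mmp3 and Mndal, and no fold is given for Aspn and Twist1.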

Other observations

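Gene families defined by symbol after the values were seen gave further groups. Over all genes 1.75% were called higher. Of 8 measured annexins, which bind membranes in the presence of calcium, 4 were higher at 12 months and 0 lower (median log2 change 0.47). Anxa8 rose 4.04-fold, Anxa3 2.75-fold, Anxa1 2.58-fold and Anxa2 1.51-fold. Of 12 S100 calcium-binding proteins 3 were higher and 0 lower (median 0.35): S100a5 (7.57-fold), S100a4 (3.97-fold) and S100a6 (2.29-fold). All 5 measured fibulins had a change above 0 and 3 were higher (median 2.09), with Fbln7 rising 7.38-fold and Fbln2 4.26-fold beside Fbln1. The receptors Axl and Mertk, which bind dying cells, rose 2.17-fold and 1.87-fold, Gja1, the gap junction protein of the connexin family, 3.89-fold, Lepr, the leptin receptor, 6.72-fold and Stat6, a factor of interleukin 4 signalling, 2.04-fold. Twist1, a factor of mesenchymal cells, rose (adjusted p = 0.00518) to 4.57 to 6.14. Its 2-month values were all under the 40th percentile and it passed the dim filter through older arrays, so no fold is given. Single arrays ended the calls of Anxa2, Anxa3, S100a6, Fbln2, Mertk, Lepr and Stat6, the last 2 without middle-aged array 3 (adjusted p = 0.0555 and 0.0502). Anxa2 was lost without any of 7 arrays and, among other settings, with the mean of its probe sets (0.43, adjusted p = 0.0663). Anxa3 was lost without any of 6 arrays and, among other settings, with the 3' to 5' covariate (1.28, adjusted p = 0.0710). Averaged over its probe sets, Lepr had 2.00.

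Families of RNA-processing and transcription genes held few calls. All 11 measured Sm-like proteins had a change below 0 and 3 were lower (Lsm1, Lsm6 and Lsm8, median -0.31), and all 9 subunits of RNase P and MRP had a change below 0 with 2 lower (Pop1 and Pop7, median -0.30). Of 11 RNA polymerase II subunits 10 had a change below 0 and 2 were lower (Polr2e and Polr2i, median -0.45). Of 30 Mediator subunits 21 had a change below 0 and 3 were lower (Med20, Med4 and Med8, median -0.26). Of 14 Integrator subunits 2 were lower (Ints3 and Ints7) and 1 higher (Ints6, median -0.32), and of 15 small nucleolar RNA host genes 14 had a change below 0 and 2 were lower (Snhg4 and Dancr, median -0.20). Of 6 origin recognition subunits 2 were lower (Orc4 and Orc6, median -0.28). Over all genes 56.6% had a change below 0 and 1.22% were called lower. The calls of Lsm1, Lsm6, Lsm8, Pop1, Pop7, Polr2e, Polr2i, Med4, Med20, Ints3, Dancr, Orc4 and Orc6 each ended on leaving out any 1 of at least 6 arrays, and the calls of Lsm6, Polr2e, Med8, Med20 and Orc4 ended without probe sets of shared sequence (log2 changes of 0.0207, -0.04, -0.34, -1.13 and -0.68). The call of Ints6 ended without middle-aged array 4 (adjusted p = 0.0514), and with the mean of probe sets the calls of Ints6, Ints7, Lsm1 and Pop1 ended (0.44, -0.35, -0.28 and -0.53).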
